A study of Mus musculus with 7 samples.

Results

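The genes described here are those of the mouse whose annotated symbols start with Vps, Snx or Chmp followed by a digit, most of them components of the machinery that sorts membrane proteins at endosomes. Where several probe sets name a gene and no other, the one with the highest mean over the 7 arrays stood for it, which gave 58 genes of 12393 measured in all. Of the protein-coding genes in a RefSeq table of GRCm38.p6 with such symbols, 75 in number, the other 17, among them Chmp2b, Vps33a and Snx27, were not analysed here. The arrays held RNA of CD11c-positive cells enriched with magnetic beads from mouse spleen 7 days after an allogeneic hematopoietic stem cell transplant, a graft from a genetically different donor. There were 3 Atg16L1 hypomorphic samples, in which the autophagy gene Atg16l1 keeps only part of its function, and 4 wild-type (WT) samples. All 7 had the C57BL/6J background, an age of 9 weeks by the sample protocol and 8 weeks by the description of the design, and the transplant in common. The labels do not say whether recipients or donors carried the genotype, how the hypomorphic allele was made, or whether each array was a separate animal. The error terms below are therefore the spread from array to array, which may be technical.

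Membrane proteins that reach the endosome either return to the cell surface or the Golgi, or are taken into vesicles inside the endosome and degraded in the lysosome. Complexes named ESCRT carry out the second route: they gather ubiquitin-tagged cargo, and polymers of CHMP proteins pinch off the vesicles. Retromer and the sorting nexins (SNX), proteins that bind endosomal lipids and in part bend membranes into tubules, serve the first route, and the HOPS and CORVET tethers bring endosomes, autophagosomes and lysosomes together for fusion. In dendritic cells these routes carry antigen, MHC class II molecules and receptors, and the closing and fusion of autophagosomes use parts of the same machinery.

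Values are the authors' log2 probe set signals, with array medians from 5.46 to 5.53. Atg16l1 read 6.86, 6.76 and 6.94 in the hypomorph and 7.42, 7.33, 7.26 and 7.2 in WT, and the groups did not overlap (log2 change -0.45, limma adjusted p = 0.462, exact two-sided permutation p = 0.0286, the smallest that 3 against 4 arrays allow). The labels do not place the altered part of the gene, so the probe set may lie outside it. Of the dendritic cell list 15 of 17 genes were measured. Itgax, which encodes CD11c, Cd74 and H2-Aa averaged 8.26, 11.06 and 12.02 over all arrays, above the upper quartiles of 7.58 to 7.65. H2-Ab1, H2-Eb1, Irf8 and Sirpa were also above them. Flt3, Zbtb46, Ciita, Batf3, Irf4 and Ccr7 were below them, at 6.66, 5.31, 5.31, 7.40, 6.05 and 4.87. Xcr1 and Cd209a, markers of dendritic cell subsets, averaged 4.19 and 3.11. The list had a median change of 0.05, and Irf4 was higher in the hypomorph without overlap (0.33, limma adjusted p = 0.644). Summed linear signals overlapped between the groups for dendritic cells, monocytes, T cells, cytotoxic lymphocytes and NK cells, and megakaryocytes and platelets. So did those of red pulp macrophages, neutrophils, B cells, erythroid cells and pancreatic acinar cells, given below. Marker lists of 4 other cell types did not overlap between the groups in their summed linear signal. These were plasma cells (3 of 4 genes measured, 926 to 1668 in the hypomorph and 459 to 923 in WT), plasmacytoid dendritic cells (3 of 5, 430 to 488 in the hypomorph and 375 to 424 in WT), basophils and mast cells (5 of 5, 293 to 360 in the hypomorph and 471 to 1250 in WT), and endothelium and stroma (7 of 7, 218 to 236 in the hypomorph and 155 to 192 in WT). At an unadjusted p under 0.05, 2 of 3 plasma cell and 2 of 7 endothelial or stromal genes were higher. On the basophil and mast cell list 4 of 5 were lower. Of the 3 plasmacytoid genes 0 had such a p and 0 had groups without overlap, and Ccr9 had a change of -0.07. On the acinar list 1 gene was higher and 2 were lower. Of all genes 3.57% were higher and 3.59% lower at that threshold. All 7 neutrophil genes had negative changes (median -0.53, with Camp and Elane lower at that threshold), with sums of 37173 to 60857 in the hypomorph and 55348 to 61293 in WT. Of 4 measured B cell genes 3 were negative (median -0.37, with Cd79a lower at that threshold), with sums of 148 to 331 in the hypomorph and 298 to 342 in WT. The erythroid list (6 of 9 measured) ran from 297 to 3172 in the hypomorph and 1480 to 2551 in WT, and the pancreatic acinar list (8 of 10) from 716 to 1493 in the hypomorph and 743 to 4846 in WT. The difference of the 3' and the 5' probe set of Actb (log2), which grows as RNA degrades, was 0.36 to 0.41 in the hypomorph and 0.40 to 0.54 in WT. That of Gapdh was 0.05 to 0.15 in the hypomorph and 0.15 to 0.25 in WT. The part of these differences in the results below was not tested. In such mixed samples, fewer cells of a type and less RNA per cell cannot be told apart.

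The endosomal sorting genes had small changes between the genotypes, none past the adjusted threshold. The log2 changes (hypomorph minus WT) of the 58 genes lay between -0.16 and 0.37 with a median of 0.03, and 36 were positive and 22 negative. Over all 12393 genes the median change was -0.00239, the changes ran from -3.52 to 1.87 and 49.2% were positive. After Benjamini-Hochberg adjustment in limma, 0 of the 58 stayed under 0.05, like 0 of the 22625 probe sets (0.0%), and their smallest adjusted p was 0.644. At an unadjusted p under 0.05 there were 4 genes, Snx16, Snx29, Vps18 and Snx6, all higher in the hypomorph. That is 6.9% of the group, against 7.69% of all probe sets and 7.17% of all genes. Of all probe sets 4.35% were higher and 3.34% lower at this threshold, and of all genes 3.57% and 3.59%. Groups did not overlap for Snx16 and Vps18, 3.45% of the 58 genes, against 5.57% of all probe sets (3.07% higher and 2.5% lower) and 5.15% of all genes (2.43% higher and 2.72% lower). Single arrays decided part of the count of 4, which was 2 (3.45%) without hypomorph replicate 1 or hypomorph replicate 3 and 7 (12.1%, 6 higher and 1 lower) without hypomorph replicate 2. The share of all probe sets was 4.84%, 6.48% and 13.2% without hypomorph replicates 1, 3 and 2 in that order, so the members' count moved with the background.

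For most members the interval of the probe set of highest mean stayed within 0.5 of no change. The 95% confidence interval of the log2 change lay inside -0.5 to 0.5 for 52 of the 58 genes (89.7%), against 78.2% of all genes. It holds for 1 probe set per gene, and the second probe set of Vps35 had an interval of 0.29 to 0.92. The change of Atg16l1, -0.45, was itself smaller than 0.5 in size. The within-group SD had a median of 0.122 over the members and 0.136 over all genes. For 15 of the 58 members all 3 hypomorph values lay within the range of the 4 WT values. The share over all genes was not counted, so this number does not set the members apart. The 3 name families differed in sign: 12 of 28 Vps, 17 of 21 Snx and 7 of 9 Chmp genes had a positive change, with medians of -0.02, 0.04 and 0.08. No test was made between these families. Without WT replicate 1, which held the lowest of the 7 values for 20 of the 58 members, 28 of the 58 changes were positive in place of 36. Chmp4c, Vps25, Vps52, Snx29 and Vps13c read within 0.5 of the lower quartile of all values (3.34) or below it, so their probe sets say little about these genes.

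**Figure D1:**
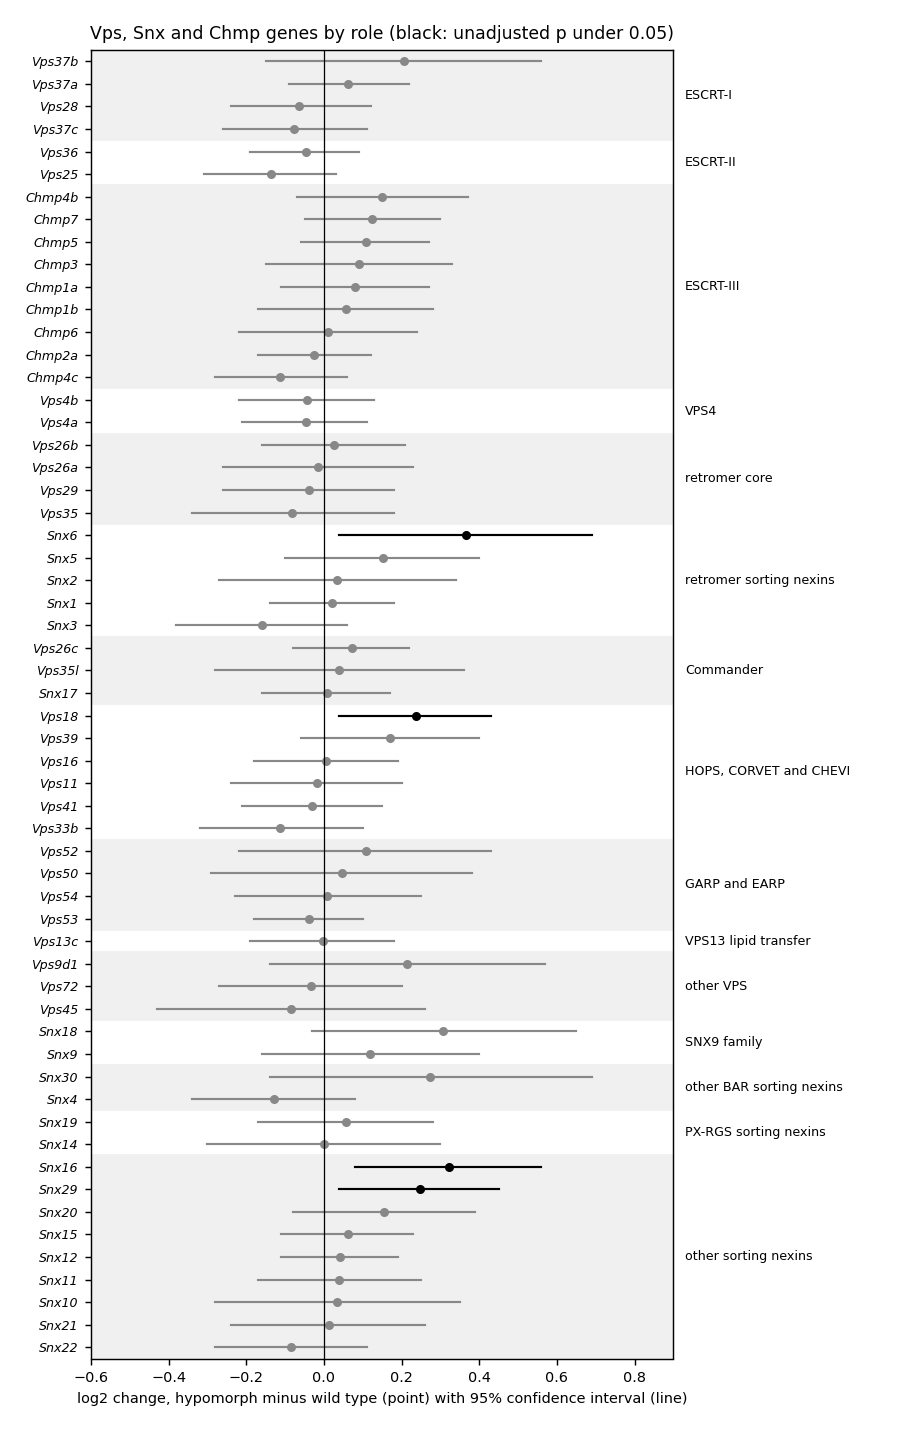
Log2 change (hypomorph minus WT) of the 58 Vps, Snx and Chmp genes with 95% confidence intervals, grouped by role, from limma on 3 hypomorph and 4 WT arrays. The 4 genes in black (Snx16, Snx29, Vps18 and Snx6) have an unadjusted p under 0.05 and lie above 0, and none passed after adjustment.

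Of the 4 genes with an unadjusted p under 0.05, Snx16 had the smallest one. It encodes a sorting nexin of early and late endosomes that takes part in receptor traffic. Snx16 read 5.44, 5.74 and 5.66 in the hypomorph, against 5.23, 5.38, 5.42 and 5.13 in WT. All hypomorph arrays stood above all WT arrays, the lowest by a narrow gap, and the change was 0.32 ± 0.104 (SE; adjusted p = 0.644), a 1.25-fold higher signal. With single arrays left out its change stayed between 0.26 and 0.41.

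Vps18, a core subunit of both HOPS and CORVET, read 5.39, 5.35 and 5.46 in the hypomorph, against 4.97, 5.24, 5.24 and 5.19 in WT. The hypomorph arrays were close together and above every WT array, of which replicate 1 was lowest. The change was 0.24 ± 0.0852 (SE; adjusted p = 0.644), or 0.17 without WT replicate 1. A second Vps18 probe set, at 4.89, 4.87 and 5.06 in the hypomorph and 4.83, 4.86, 4.94 and 4.96 in WT, overlapped between the groups and had a change of 0.04.

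Snx6 encodes a membrane-bending sorting nexin that pairs with SNX1 or SNX2 to form tubules from endosomes to the Golgi. Its values were 8.95, 9.16 and 9.18 in the hypomorph, against 8.46, 8.82, 8.62 and 9.03 in WT. The groups overlapped, since WT replicate 4 lay above hypomorph replicate 1, and the change was 0.37 ± 0.138 (SE; adjusted p = 0.644). Its other probe sets gave -0.02 and 0.08, and over the mean of all 3 the change was 0.14. Snx29 read 3.76, 3.53 and 3.82 in the hypomorph and 3.53, 3.37, 3.43 and 3.49 in WT, a change of 0.25 ± 0.0872 (SE; adjusted p = 0.644) at a dim signal. Adding 32 to the linear signal brought the change of Snx29 to 0.07 and that of Vps18 to 0.13.

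**Figure D2:**
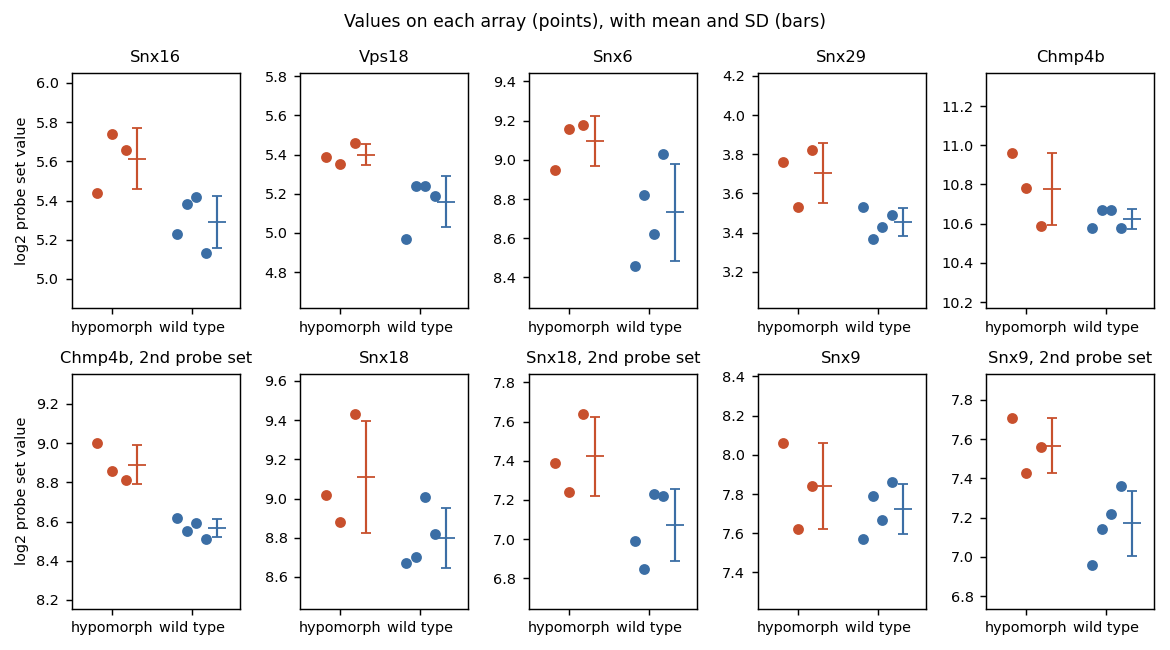
Log2 values on each array for Snx16, Vps18, Snx6, Snx29 and for both probe sets of Chmp4b, Snx18 and Snx9 (hypomorph left, WT right; bars give mean and SD; every vertical axis spans the same log2 width). Hypomorph and WT values do not overlap for Snx16, Vps18 and the second probe sets of Chmp4b, Snx18 and Snx9, and they overlap in the other panels.

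Snx18 and Snx9 encode related sorting nexins with an SH3 and a BAR domain, which reshape membranes in endocytosis. In human cells SNX18 binds ATG16L1 and LC3 and promotes the formation of autophagosomes. Snx18 read 9.02, 8.88 and 9.43 in the hypomorph, against 8.67, 8.70, 9.01 and 8.82 in WT. Hypomorph replicate 3 was the highest and the groups overlapped through WT replicate 3 (change 0.31, 95% confidence interval -0.03 to 0.65, adjusted p = 0.646). Its second probe set read 7.39, 7.24 and 7.64 in the hypomorph and 6.99, 6.85, 7.23 and 7.22 in WT. There the groups were just apart, with a change of 0.35 (0.05 to 0.65, adjusted p = 0.644). Without hypomorph replicate 3 the change of the first Snx18 probe set was 0.14. Snx9 read 8.06, 7.62 and 7.84 in the hypomorph, against 7.57, 7.79, 7.67 and 7.86 in WT, with overlap and a change of 0.12 (-0.16 to 0.40). Its second probe set read 7.71, 7.43 and 7.56 in the hypomorph and 6.96, 7.14, 7.22 and 7.36 in WT, without overlap and with a change of 0.40 (0.13 to 0.66, adjusted p = 0.644). All 4 probe sets of this pair were positive, and none passed the adjusted threshold. Snx33, the remaining gene of this family, was not analysed here.

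The genes of the first ESCRT complexes had overlapping groups with the probe sets that name them alone. A probe set shared by Vps25 and another gene, given below, did not overlap. ESCRT-I, which binds ubiquitin-tagged cargo, had 4 measured genes, of which Vps37b and Vps37a were positive (0.21 and 0.06) and Vps37c and Vps28 negative (-0.08 and -0.06). Vps37b read 7.86, 7.53 and 7.93 in the hypomorph, against 7.87, 7.51, 7.59 and 7.28 in WT, with overlap. ESCRT-II links cargo to the CHMP polymer. Its subunits Vps36 and Vps25 had changes of -0.05 (95% confidence interval -0.19 to 0.09) and -0.14 (-0.31 to 0.03).

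ESCRT-III, the polymer that cuts the neck of the vesicle and also seals autophagosomes and repairs damaged lysosomes, had a positive change in 7 of 9 genes, with a median of 0.08. No gene of it had an unadjusted p under 0.05 with the probe set of highest mean. Chmp4b, the main filament subunit, read 10.96, 10.78 and 10.59 in the hypomorph, against 10.58, 10.67, 10.67 and 10.58 in WT. Hypomorph replicates 1 and 2 were above all WT arrays and replicate 3 was among them (change 0.15, -0.07 to 0.37). A second Chmp4b probe set read 9.00, 8.86 and 8.81 in the hypomorph and 8.62, 8.55, 8.59 and 8.51 in WT. Here every hypomorph array was above every WT array, and the change was 0.33 ± 0.0705 (SE; adjusted p = 0.644). Chmp7, which also works at the nuclear envelope, had a change of 0.12 (-0.05 to 0.30), Chmp5 0.11 (-0.06 to 0.27), Chmp3 0.09 (-0.15 to 0.33) and Chmp1a 0.08 (-0.11 to 0.27). Chmp2a, which recruits VPS4, had -0.03 (-0.17 to 0.12), and Chmp1b, Chmp6 and Chmp4c had 0.06, 0.01 and -0.11. On the single hypomorph arrays the median deviation of the 9 genes from the WT mean was 0.19, -0.06 and 0.06, against -0.04, 0.03, -0.01 and 0.03 in WT, so hypomorph replicate 1 was highest.

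VPS4 is the ATPase that takes the CHMP polymer apart. Vps4a read 7.49, 7.32 and 7.43 in the hypomorph, against 7.43, 7.44, 7.42 and 7.54 in WT. Vps4b, which lies on chromosome 1 like Atg16l1, read 10.27, 10.27 and 10.39 in the hypomorph, against 10.25, 10.42, 10.30 and 10.45 in WT. The groups overlapped in both, with changes of -0.05 (-0.21 to 0.11) and -0.04 (-0.22 to 0.13).

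Retromer, the trimer of VPS35, VPS29 and VPS26 that retrieves receptors from endosomes, had changes near 0 and a spread among WT arrays that took in most hypomorph values. Vps35 read 9.55, 9.74 and 9.61 in the hypomorph, against 9.50, 9.89, 9.62 and 9.87 in WT, a change of -0.08 (95% confidence interval -0.34 to 0.18). For Vps29 the values were 9.66, 9.65 and 9.65 in the hypomorph, against 9.59, 9.87, 9.53 and 9.78 in WT, a change of -0.04 (-0.26 to 0.18). Vps26a read 8.82, 8.77 and 8.91 in the hypomorph, against 8.70, 9.01, 8.68 and 9.00 in WT, a change of -0.02 (-0.26 to 0.23). In all 3 genes WT replicates 2 and 4 were the highest of the 7 arrays. WT replicates 1 and 3 were the lowest for Vps29 and Vps26a, while for Vps35 replicate 1 was lowest and replicate 3 lay among the hypomorph arrays. Vps26b, the paralogue of Vps26a, ran the other way among WT arrays, at 7.25, 7.05, 7.24 and 7.05, with 7.21, 7.13 and 7.17 in the hypomorph.

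The sorting nexins that work with retromer or form tubules beside it had in part the same order among WT arrays. Snx2 read 9.86 to 9.92 in the hypomorph, against 9.56 to 10.12 in WT, a change of 0.03 (-0.27 to 0.34). Snx5 read 11.74, 11.62 and 11.48 in the hypomorph, against 11.31, 11.61, 11.33 and 11.59 in WT, a change of 0.15 (-0.10 to 0.40). The other Snx5 probe sets gave 0.05, 0.05, 0.04 and -0.13. In both Snx2 and Snx5, as in Snx6, WT replicates 1 and 3 were the lowest of the 7 arrays with the probe set of highest mean. Snx1, the partner of SNX5 and SNX6, kept to 7.84 to 8.00 in the hypomorph and 7.87 to 8.01 in WT (change 0.02). Snx3, which recruits retromer to early endosomes without a BAR domain, was the member with the most negative change, averaging 10.16 ± 0.156 in the hypomorph and 10.32 ± 0.0918 in WT (SD, n = 3 and 4; change -0.16, -0.38 to 0.06). Hypomorph replicate 3 was its lowest array, and the groups overlapped.

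Over the 9 genes of retromer and its sorting nexins the median deviation from the WT mean was -0.03, 0.02 and 0.02 in the hypomorph, against -0.15, 0.14, -0.10 and 0.13 in WT. The red pulp macrophage markers had medians of 0.42, 0.15 and 0.31 in the hypomorph and -0.51, 0.22, -0.17 and 0.38 in WT, with the same arrays low and high within WT. Of that list 10 of 11 genes were measured, and all 10 had a positive change, with 1 at an unadjusted p under 0.05. Their summed linear signal was 33554 to 40571 in the hypomorph and 22686 to 39621 in WT. The dendritic cell markers had medians of 0.09, -0.09 and -0.05 in the hypomorph and -0.22, 0.04, 0.04 and 0.05 in WT. Other lists also differed among the WT arrays. There the monocyte list had medians of -0.38, -0.00, 0.06 and 0.40, and the T cell list 0.44, -0.31, 0.07 and -0.20. The list of cytotoxic lymphocytes and NK cells had 0.27, -0.22, 0.03 and -0.04 in WT. The part of any of these cell type signals in the order of the retromer genes was not tested.

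**Figure D3:**
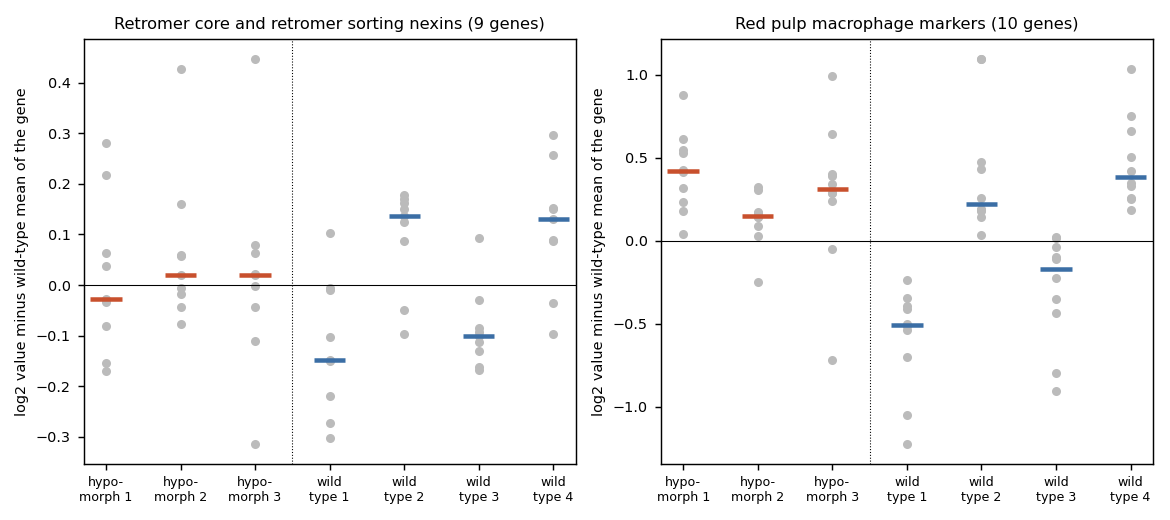
Deviation of each gene from its WT mean (log2, points) on the 3 hypomorph and 4 WT arrays, with the median over genes (bars), for 9 retromer genes (left) and 10 red pulp macrophage markers (right, wider vertical axis). WT replicates 1 and 3 have negative medians in both panels (-0.15 and -0.10 left, -0.51 and -0.17 right), and WT replicates 2 and 4 positive ones.

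Commander, a second retrieval complex that recycles integrins and lipoprotein receptors, was represented by its retromer-like subunits Vps35l and Vps26c and its cargo adaptor Snx17. Their changes were 0.04 (-0.28 to 0.36), 0.07 (-0.08 to 0.22) and 0.01 (-0.16 to 0.17). Snx17 read 10.17, 10.12 and 10.12 in the hypomorph, against 10.02, 10.25, 10.11 and 10.13 in WT, with overlap. A further 9 Commander genes without these names had 4 positive and 5 negative changes, with a median of -0.04. Commd1 had -0.20, and its second probe set -0.27, lower without overlap (limma adjusted p = 0.644). Ccdc93 had 0.11, higher without overlap, and 0.16 with its second probe set. Commd7 had 0.14 and Ccdc22 -0.17.

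HOPS tethers late endosomes and autophagosomes to lysosomes, and CORVET acts at early endosomes with the same core. Apart from Vps18, described above, the core genes Vps16 and Vps11 did not separate the groups. Vps16 read 7.91, 7.70 and 7.84 in the hypomorph, against 7.71, 7.87, 7.90 and 7.77 in WT, a change of 0.00 (-0.18 to 0.19), and Vps11 had -0.02 (-0.24 to 0.20). Of the subunits that belong to HOPS alone, Vps39 read 7.87, 7.51 and 7.80 in the hypomorph, against 7.46, 7.57, 7.59 and 7.61 in WT. Hypomorph replicates 1 and 3 were above all WT arrays and replicate 2 below most of them (change 0.17, -0.06 to 0.40), and without hypomorph replicate 2 the change was 0.28. Vps41 had a change of -0.03 (-0.21 to 0.15), and Vps33b, a homologue of the core subunit VPS33A that pairs with VIPAS39, had -0.11 (-0.32 to 0.10).

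Factors of the TFEB family, which control many lysosomal genes, bind a form of the E-box, the palindrome CACGTG, which reads alike on both strands. Windows from 250 bases before to 50 after the gene start (RefSeq, GRCm38.p6) were at hand for 38 of the 58 genes, 47 windows in all. These letters were found in 6 windows of 5 genes, Vps16, Vps26a, Vps50, Snx5 and Snx18, which is 13.2% of the 38 genes, against 8.09% of all genes with a window and 7.15% of all 32851 windows. Shown, with each E-box in capitals (2 in the window of Vps26a, 1 in the others), are windows of the HOPS core gene Vps16, the retromer gene Vps26a and the autophagy-linked Snx18, so that they can be set beside the changes of these genes. A match is a description of the letters and no evidence of binding.
Vps16, chr2:130424070-130424369, plus strand: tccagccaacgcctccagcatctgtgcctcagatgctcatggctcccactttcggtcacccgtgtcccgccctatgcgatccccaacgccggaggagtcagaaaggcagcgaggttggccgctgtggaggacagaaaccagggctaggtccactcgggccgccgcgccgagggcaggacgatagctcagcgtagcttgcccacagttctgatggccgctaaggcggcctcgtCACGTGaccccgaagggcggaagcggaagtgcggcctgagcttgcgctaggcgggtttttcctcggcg
Vps26a, chr10:62486756-62487055, minus strand: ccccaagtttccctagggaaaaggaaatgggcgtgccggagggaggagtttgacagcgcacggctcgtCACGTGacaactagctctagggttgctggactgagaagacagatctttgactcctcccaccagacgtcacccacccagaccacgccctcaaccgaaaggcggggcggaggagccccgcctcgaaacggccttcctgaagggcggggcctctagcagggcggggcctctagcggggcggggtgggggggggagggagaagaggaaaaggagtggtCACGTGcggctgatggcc
Snx18, chr13:113618515-113618814, minus strand: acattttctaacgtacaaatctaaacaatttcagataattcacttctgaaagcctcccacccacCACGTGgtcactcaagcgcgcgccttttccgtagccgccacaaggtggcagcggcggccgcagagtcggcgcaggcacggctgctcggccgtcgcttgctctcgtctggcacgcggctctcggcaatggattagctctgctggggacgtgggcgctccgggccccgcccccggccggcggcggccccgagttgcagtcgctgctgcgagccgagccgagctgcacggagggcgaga
Of the 5 genes with an E-box in the window, Snx18 and Snx5 had changes of 0.31 and 0.15, Vps50 0.05, Vps16 0.00 and Vps26a -0.02. These are the changes of the probe sets of highest mean, and other probe sets of Snx5 were nearer 0 or negative.

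GARP, which tethers vesicles returning from endosomes to the Golgi, and EARP, its recycling relative in which VPS50 stands in for VPS54, had changes between -0.04 (Vps53) and 0.11 (Vps52), with Vps50 at 0.05 and Vps54 at 0.01. Vps54 read 9.09, 8.83 and 9.11 in the hypomorph, against 9.17, 8.90, 9.05 and 8.89 in WT. The WT array that was low for Vps50 was replicate 1, at 6.35 against 6.79 to 6.96 in the other WT arrays and 6.66 to 6.89 in the hypomorph. Vps13c, a lipid transfer protein, read 3.59 to 3.65 in the hypomorph and 3.46 to 3.72 in WT. Vps45, a regulator of endosomal SNARE proteins, had a change of -0.08 (-0.43 to 0.26). Vps9d1, with a VPS9 domain as found in activators of RAB5, had 0.21 (-0.14 to 0.57). Vps72 shares only the name, since its product is a histone chaperone in the nucleus, and its change was -0.03 (-0.27 to 0.20).

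Among the other sorting nexins, Snx4 and Snx30 encode partners of a recycling complex that, in human cells, also serves autophagy. Snx4 read 8.72, 8.41 and 8.72 in the hypomorph, against 8.83, 8.72, 8.72 and 8.72 in WT, a change of -0.13 (-0.34 to 0.08). Its second probe set gave -0.16, so both were negative. Snx30 read 5.85, 5.63 and 5.63 in the hypomorph, against 5.01, 5.76, 5.32 and 5.63 in WT, a change of 0.27 (-0.14 to 0.69) with WT replicate 1 the lowest. Snx14 and Snx19, of the group with a domain like that of RGS proteins, had changes of -0.00 (-0.30 to 0.30) and 0.06 (-0.17 to 0.28), and Snx14 spread widely within the hypomorph (6.49, 7.01 and 6.77). Snx20, whose product binds the selectin ligand PSGL-1 in leukocytes, read 6.74, 6.62 and 6.89 in the hypomorph, against 6.69, 6.40, 6.70 and 6.60 in WT (0.15, -0.08 to 0.39). Snx10, needed for endosome and lysosome function in osteoclasts, read 9.67, 9.43 and 9.75 in the hypomorph, against 9.38, 9.60, 9.46 and 9.87 in WT (0.03, -0.28 to 0.35). Of the rest, Snx15, Snx12, Snx11 and Snx21 had changes between 0.01 and 0.06, and Snx22 had -0.08 with values of 4.59 to 4.67 in the hypomorph and 4.60 to 4.89 in WT.

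Several genes gave different answers with different probe sets. The 58 genes had 93 probe sets naming them alone, and 25 of the 58 had more than 1. For 12 of the 25 every probe set had the same sign (10 positive and 2 negative), and for 13 the signs differed. Vps35 differed most. Against -0.08 with the probe set at 9.50 to 9.89, its second probe set read 4.13, 4.29 and 4.48 in the hypomorph and 3.78, 3.42, 3.67 and 3.93 in WT, without overlap and with a change of 0.60 ± 0.135 (SE; adjusted p = 0.644). That probe set lies near the lower quartile of the arrays. Over the mean of both probe sets Vps35 had a change of 0.26 (adjusted p = 0.687), which turned the direction. Over all 93 probe sets, 8 had an unadjusted p under 0.05 (8.6%, against 7.69% of all probe sets), and all 8 were higher in the hypomorph. Of the 35 probe sets that were not those of highest mean, 4 (11.4%) had an unadjusted p under 0.05 and no overlap (Vps35, Chmp4b, Snx9 and Snx18), all higher in the hypomorph. Of all probe sets 7.69% had such a p (4.35% higher) and 5.57% had no overlap (3.07% higher). A further 3 probe sets name a member together with another gene and had changes of -0.28 (Chmp1b with 2610002M06Rik), -0.08 and -0.13 (Vps25 with Ramp2).

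**Figure D4:**
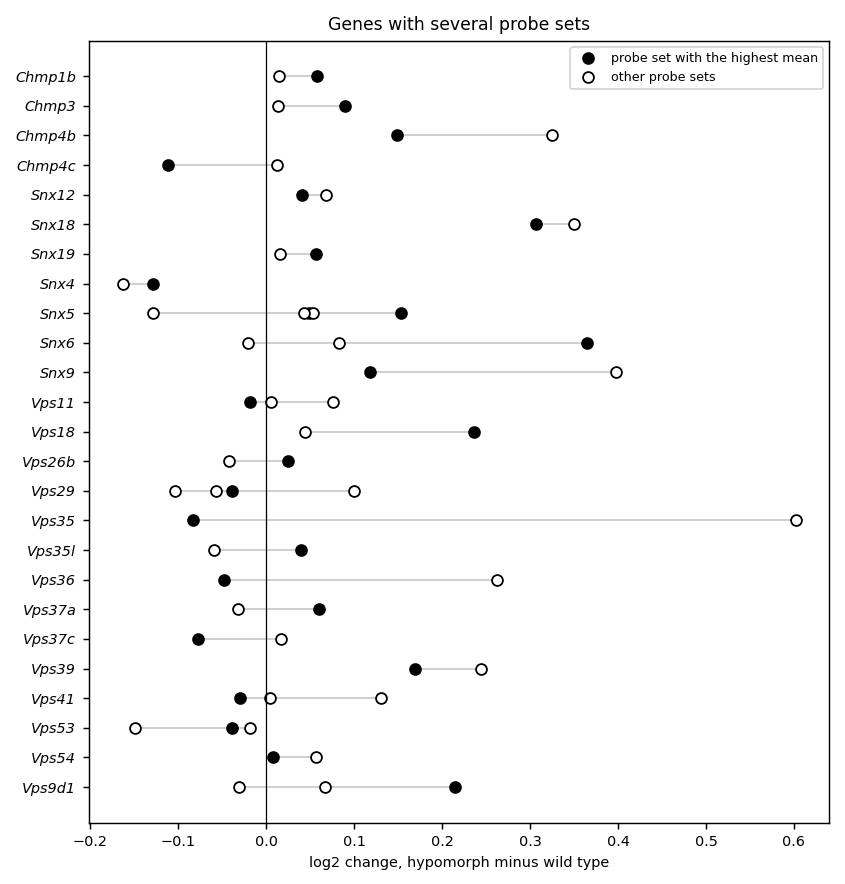
Log2 change (hypomorph minus WT) of every probe set of the 25 members with several probe sets naming them alone (filled: highest mean, used for the gene; open: the others). Chmp4b, Snx18 and Snx9 are positive with all their probe sets, while the probe sets of Vps35 lie at -0.08 and 0.60.

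Genes of the same pathway without these names also gave no call after adjustment, and Washc4 had the most positive change among them. Of 49 measured, 30 were positive with a median change of 0.03, and at an unadjusted p under 0.05 there were 4 higher and 1 lower, beside 3.57% higher and 3.59% lower (7.17% together) of all genes. Washc4, a subunit of the WASH complex that builds actin on endosomes beside retromer, read 7.22, 7.07 and 7.27 in the hypomorph, against 6.41, 5.69, 6.69 and 6.57 in WT. The groups did not overlap, and the change was 0.85 (95% confidence interval 0.33 to 1.37, adjusted p = 0.644), a 1.8-fold higher signal. Its other probe sets had the same direction and no overlap either, with changes of 0.88 and 0.74. The other WASH genes Washc1, Washc2 and Washc3 had changes of 0.03, 0.10 and 0.05 with the probe set of highest mean. The other probe sets of Washc2 gave 0.42 (0.13 to 0.71, adjusted p = 0.644, hypomorph higher without overlap), 0.24 and 0.09, those of Washc3 0.08 and 0.06, and that of Washc1 -0.12.

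Next to ESCRT-III, Usp8, an enzyme that removes ubiquitin from cargo, read 8.65, 8.55 and 8.20 in the hypomorph, against 7.93, 7.93, 8.10 and 8.23 in WT (0.42, 0.12 to 0.72). Ist1, an ESCRT-III related protein, read 10.29, 9.99 and 10.22 in the hypomorph, against 9.95, 9.86, 10.02 and 9.86 in WT (0.24), and its second probe set gave 0.29. Rab5c, a GTPase of early endosomes, had a change of 0.18 and Fig4, a phosphatase in the PIKfyve lipid kinase complex, -0.17, both without overlap between the groups. All of these had an adjusted p of 0.644. The cargo-recognizing ESCRT-0 genes Hgs, Stam and Stam2 had changes of 0.10, -0.02 and -0.02. A second Stam probe set gave -0.26 (adjusted p = 0.644), lower in the hypomorph at an unadjusted p under 0.05 but with overlap, and the other probe sets of Stam2 gave -0.01 to 0.10. The ESCRT-I gene Tsg101 had -0.03 and the ESCRT-II gene Snf8 -0.11. Pik3c3 and Pik3r4, which encode the lipid kinase VPS34 and its partner VPS15, had 0.15 (-0.04 to 0.34) and -0.01 (-0.19 to 0.17). Among receptors that retromer or ESCRT sort, Igf2r, Sorl1 and M6pr had changes of 0.21, 0.15 and 0.07. Their second probe sets gave 0.03, -0.04 and 0.19 in that order. Tfrc, the transferrin receptor, had -0.77 with a wide interval (-1.87 to 0.34), beside the erythroid marker sums given above. The other Tfrc probe sets gave -0.29 and 0.13, so the direction was not shared.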

How the data were processed

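The RNA of each sample (100 ng, per the labels) was hybridized to 1 Affymetrix Mouse430A array, and the authors deposited log2 signals by probe set. Affymetrix Power Tools is named in the submitters' processing notes. Its version and the way signals were corrected, summarized and scaled are not stated there. The array quartiles were nearly equal, so the values were taken as already normalized. Of 22690 probe sets, 64 controls and 1 without a value were left out, and 22625 were tested, of which 20379 named 1 gene in the platform annotation. All 58 member symbols were found in the RefSeq table (GRCm38.p6). The number of arrays limits the precision.

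Hypomorph and wild type were compared in limma 3.58.1 (R 4.3.3, lmFit and eBayes, no replicate block), and p-values were adjusted by Benjamini-Hochberg across the tested probe sets at 0.05. Alternatives were median centring, quantile normalization, trend and robust variance, array weights, 32 added to the linear signal, a filter on dim probe sets, a replicate block, other choices of probe set and single arrays left out. The members, role groups and lists were chosen with earlier results of these data known. Named with values were members with an unadjusted p under 0.05 or no overlap, up to 4 per role group by p, and a fixed list. Chmp1b, Chmp6, Snx11, Snx12, Snx15 and Snx21 fall outside this rule and were added after their values were seen. Pathway genes without these names were to be named up to 4 per group by p, but in some groups fewer were named. Pik3r4 fell outside this rule. Stambp and Pdcd6ip, in the group of Usp8, met it but are not described above. Stambp had a change of 0.41 (-0.03 to 0.86), and -0.05 with its second probe set. Pdcd6ip had 0.10, higher without overlap, and -0.26 to 0.25 with its other probe sets. On simulated data of 22625 probe sets with 200 changed, 42.7% of log2 changes of 0.5, 81.5% of 1 and 96.8% of 2 were recovered, with 6.02% of calls false.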

Additional observations from a re-analysis of the deposited data

Results flagged for a closer look

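In 5 of the 58 genes, 1 WT array stood apart from the other 3 by Dixon's ratio at its 95% critical value, and chance flags about 1 in 20 groups. Vps52 read 3.19 on WT replicate 1, against 3.50 to 3.52 on the others, and Snx19 read 7.01 on WT replicate 1, against 7.11 on the others. Snx4 read 8.83 on WT replicate 1, against 8.72, Chmp2a 9.55 on WT replicate 4, against 9.51, and Vps53 7.93 on WT replicate 2, against 7.84 to 7.85. Identical values on at least 2 arrays occurred in 24 of the 58 genes, among them Snx4, Chmp2a, Vps52, Vps53 and Snx19.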

How the results depend on the processing

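No member passed an adjusted p of 0.05 in any of 17 alternatives, the smallest being 0.165 (Snx29), and 31 of the 58 genes had one sign in all of them. Over all probe sets, 5 passed with median centring, with trend and robust variance and above the median level alike, 3 with array weights, and 0 to 2 with single arrays left out. At an unadjusted p under 0.05, the filter on dim probe sets left 1057 of 11312 probe sets (9.34%) and 1 of 49 members (Snx6, 2.04%). Snx16, Vps18 and Snx29 averaged 5.43, 5.26 and 3.56 over all arrays, below the array medians of 5.46 to 5.53. Single arrays left out gave 1095 to 2989 probe sets and 2 to 7 members. Without the 2 WT arrays richest in acinar transcripts, chosen after seeing the data, the median change of the members was 0.07, and 3 members (5.17%) had an unadjusted p under 0.05, against 5.64% of all probe sets. The mean over probe sets turned Vps35 to 0.26, as its second probe set runs the other way. Snx16 had an unadjusted p under 0.05 in 15 of the 17 alternatives, Vps18 in 12, and Snx6 and Snx29 in 11 each. No label pairs the arrays, and deviations of same-numbered arrays correlated at 0.102, 0.0977 and 0.339. Hypomorph replicates 1 and 2 each correlated best with another number, so the numbers were not taken as pairs. With the replicate block 4 members had an unadjusted p under 0.05, of which 3 were shared, and 1862 probe sets did, 0 after adjustment.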
